A study of Apis mellifera with 25 samples.

Results

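The gene followed here is vitellogenin, identifier GB49544, 1 of 15314 in the deposited gene table. The name was given for this identifier with the request, and the deposited files pair no identifier with a name. Vitellogenin is the precursor of egg yolk protein. It is made in the insect fat body, released into the haemolymph and taken up by growing oocytes. In honey bee workers, which usually lay no eggs, it also serves as a storage protein that nurses draw on for brood food, and it is known for its mutual suppression with juvenile hormone, for protection against oxidative stress and for links with ageing and foraging behaviour. Its level in workers that had activated their ovaries, against workers that had not, is therefore a natural question for a study of worker reproduction.

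RNA had been sequenced from 25 adult workers of Apis mellifera, 1 bee per library, 12 with active and 13 with inactive ovaries. All workers, in both groups, came from reciprocal crosses between Africanized and European honey bees, had been kept in queenless colonies until about 18 days had passed, and were sorted by the state of their dissected ovaries. Polyadenylated RNA was extracted from the eviscerated abdomen of each bee, fat body and ovaries included, so that the site of vitellogenin synthesis and the organ that takes it up were in one extract. Library titles begin with 875, 882, 888 or 894, the title prefix. Its meaning is not explained in the labels. Each prefix held 3 bees with active ovaries and 3 bees with inactive ovaries, except 882, which held 4 of the second kind. Active bees 1 to 3 and inactive bees 1 to 3 belong to prefix 875, active 4 to 6 and inactive 4 to 7 to 882, active 7 to 9 and inactive 8 to 10 to 888, and active 10 to 12 and inactive 11 to 13 to 894. The numbers serve only as names and were given by the order of deposition. The labels do not say whether the bees of a group came from separate colonies, so p-values measure the spread between these bees.

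Total gene counts per library, in units of 1e6, ran from 11.5 to 34.7 with active ovaries, against 7.54 to 37.7 with inactive ovaries. Markers of fat body, ovary and other tissues could not be read, since none of the identifiers (0 of 15314) matched the reference gene table. In the allele tables described below, inactive bees 6, 8 and 9 stood apart. They had no or almost no D reads in 19, 16 and 37 genes, against at most 3 genes in any other bee. Genes counted were near balance in other bees of the prefix, and the number judged in each bee is not given here. The opposite, no or almost no Q reads, was found in 10 to 47 genes of every bee. The comparisons of vitellogenin by ovary status and by prefix, the named correlations and the parental reads are also given without them.

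Vitellogenin took a large and very uneven part of the RNA. It held between 0.273% and 11.6% of all gene counts in a bee, with a median of 5.51%, a 42.7-fold range over the 25 bees. It had the highest count of any gene in 18 of the 25 libraries, 9 with active and 9 with inactive ovaries, and the highest mean CPM of all genes (CPM, counts per 1e6 counts, computed with TMM-scaled library sizes). The lowest place it took in any library was the 26th. Such ranks favour long transcripts, since gene lengths were not used. At these depths counting error was negligible, with a 95% interval of at most 0.0177 percentage points on either side of a bee's share.

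In prefix 875 the active bees had shares of 1.10%, 2.43% and 0.330%, against 5.92%, 2.52% and 0.273% in the inactive bees. In prefix 882 the active bees had 10.5%, 5.94% and 3.33%, against 11.6%, 2.65%, 1.90% and 8.16% in the inactive bees. Both groups of these prefixes overlapped, and each spanned several-fold within itself. In prefix 888 the active bees lay close together at 5.08%, 4.91% and 5.51%, against 9.63%, 10.2% and 3.04% in the inactive bees. In prefix 894 the active bees had 8.39%, 5.80% and 8.02%, against 4.12%, 7.73% and 7.63% in the inactive bees. The groups overlapped here too, and with inactive bees 8 and 9 left out of prefix 888, only 1 inactive bee remained there, below its active bees.

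**Figure D1:**
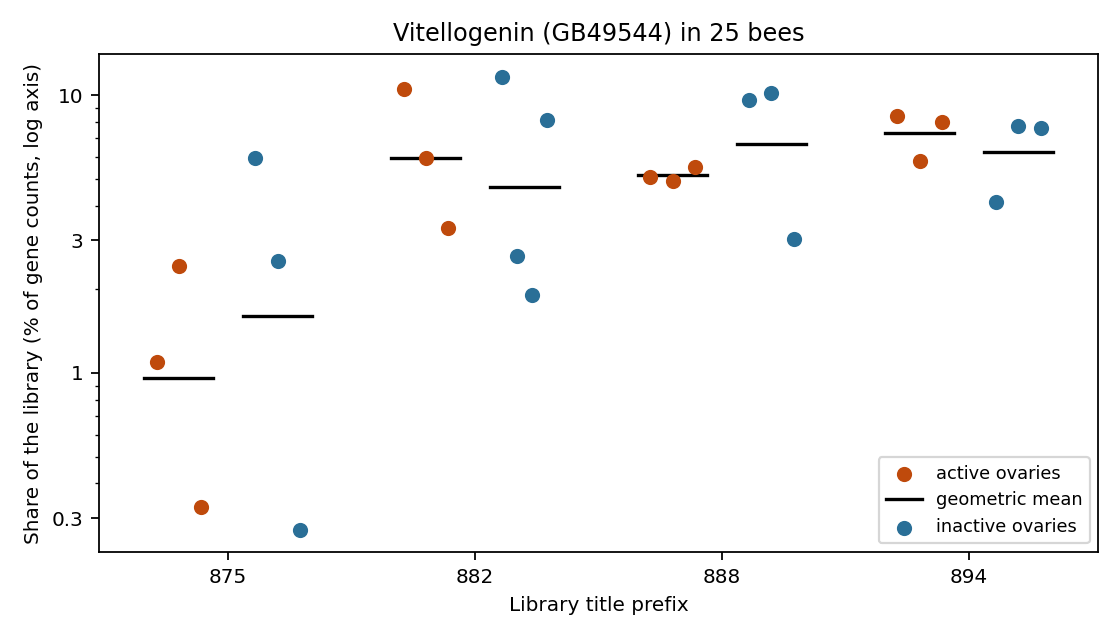
Share of each library's gene counts taken by vitellogenin (percent, log axis) in 25 bees, by title prefix, with active ovaries left of inactive ovaries. Each point is a bee and the bar is the geometric mean of its group; the lowest bees, at 0.330% and 0.273%, are an active and an inactive bee of prefix 875.

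Over all prefixes the share averaged 5.12% ± 3.0 (SD, n = 12) in active bees, against 5.80% ± 3.62 (SD, n = 13) in inactive bees. In CPM the active bees averaged 48086 ± 31085 (SD, n = 12), against 70485 ± 50523 (SD, n = 13) in the inactive bees. The edgeR quasi-likelihood test, fitted to all genes with prefix as a covariate, gave a log2 difference of -0.71 for active against inactive ovaries (SE 0.44, 95% interval -1.62 to 0.20), or 0.611-fold with an interval of 0.325-fold to 1.15-fold. The adjusted p was 0.245, so vitellogenin was not called, in a comparison that called 21.6% of the 13157 genes tested. The interval reaches from 0.325-fold to past equality, so vitellogenin is not shown to be alike in the groups. Without inactive bees 6, 8 and 9 the log2 difference was -0.53 (edgeR adjusted p = 0.468). In RNA of the eviscerated abdomen, a smaller share of fat body in the extract and less vitellogenin RNA per fat body cell cannot be told apart.

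The size of this difference depended on the scale used. Scaled by total counts only, it was -0.33 (edgeR adjusted p = 0.542), while the median log2 difference of all genes moved by 0.23, from -0.04 with TMM to 0.19. Relative to that median, vitellogenin stood at -0.68 with TMM scaling and at -0.53 with total counts. The share of library uses no scaling factor but divides by total counts, which all other genes enter. On it, the mean log2 share differed by -0.13 (exact permutation test within prefixes, two-sided p = 0.764, 280000 exchanges). Its direction turned without prefix 875 (0.07) and without inactive bees 6, 8 and 9 (0.04).

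Within single prefixes the difference between active and inactive ovaries was poorly determined. The fitted log2 differences were -1.40 in prefix 875 (SE 0.92), -0.42 in 882 (SE 0.85), -1.13 in 888 (SE 0.92) and 0.07 in 894 (SE 0.90). None of these 4 was called by edgeR, with adjusted p-values of 0.9996, 0.817, 0.370 and 0.9998, while edgeR called 7.14% of all genes within 882 and 24.1% within 888. In 875 and 894 edgeR called 0 of 13157 genes, with 682 and 119 at an unadjusted p under 0.05. DESeq2 called 3 and 0 genes there, and limma-voom called 0 in both. A test of whether the ovary difference varied between prefixes gave an adjusted p of 0.929 (edgeR, 3 interaction terms), where 0.167% of genes were called. The value in prefix 888 rested on 2 bees that stand apart in the allele tables, and without inactive bees 6, 8 and 9 it was 0.61 (edgeR adjusted p = 0.785). That value compares the active bees with a lone inactive bee, which is assumed to vary like the other groups. The value in 875 was -0.07 without inactive bee 1 and -2.21 without active bee 2.

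**Figure D2:**
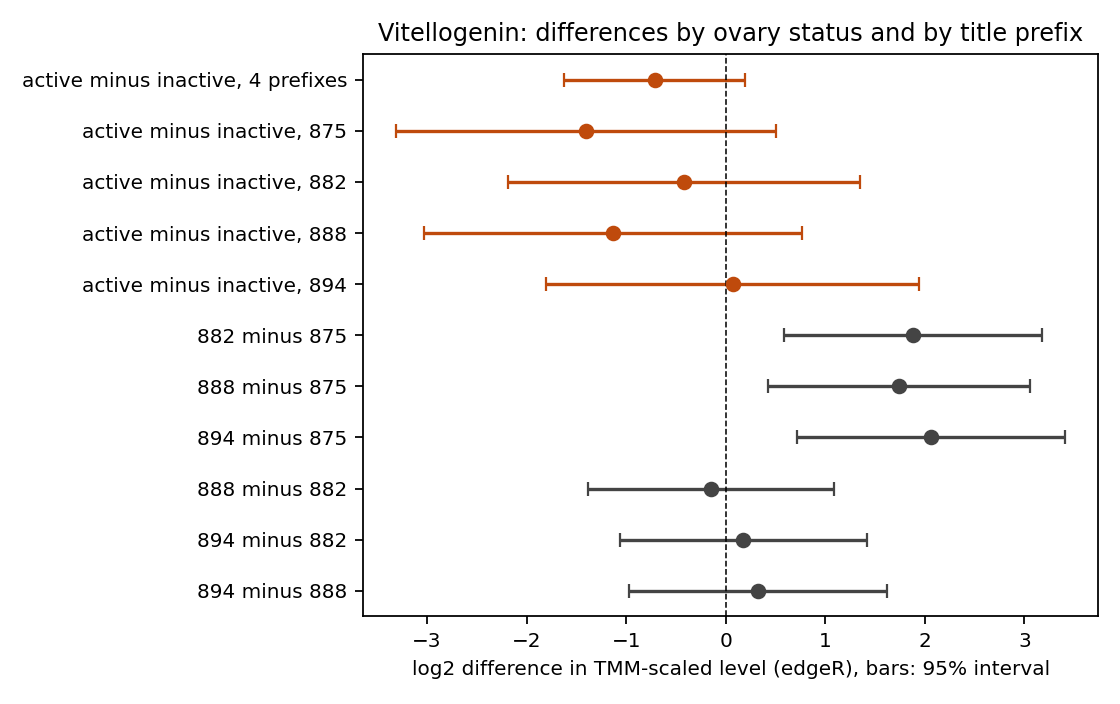
Log2 differences in the TMM-scaled level of vitellogenin with 95% intervals from edgeR, for active minus inactive ovaries over all and within single title prefixes, and for pairs of prefixes. The interval of the ovary difference over 4 prefixes runs from -1.62 to 0.20, and the 3 pairs that involve prefix 875 lie above 0.

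By title prefix, the bees of 875 had the lowest vitellogenin levels, on average. The mean share was 2.10% ± 2.12 (SD, n = 6) in prefix 875, 6.31% ± 3.91 (SD, n = 7) in 882, 6.40% ± 2.86 (SD, n = 6) in 888 and 6.95% ± 1.65 (SD, n = 6) in 894. The bees of prefix 875 reached up to 5.92% and those of the other prefixes down to 1.90%, so the groups overlapped. With ovary status as a covariate, log2 differences were 1.88 for 882 minus 875 (SE 0.63, edgeR adjusted p = 0.0959), 1.74 for 888 minus 875 (SE 0.64, adjusted p = 0.345) and 2.06 for 894 minus 875 (SE 0.66, adjusted p = 0.0674), which are folds of 3.69, 3.34 and 4.17. The intervals of the 3 single contrasts exclude 0, but none passed the threshold after adjustment over all genes. These contrasts share the bees of prefix 875. The background of calls was 3.55%, 0.152% and 4.27% of genes. The log2 differences of the remaining pairs were -0.14 for 888 minus 882, 0.18 for 894 minus 882 and 0.32 for 894 minus 888, with SEs of 0.60 to 0.63, where 1.35%, 0.0532% and 0.395% of genes were called. None of the 3 was called by edgeR. Without inactive bees 6, 8 and 9, which leaves a lone inactive bee in 888, they were -0.85, -0.02 and 0.83, and the 3 pairs with 875, in the order above, were 2.04, 1.19 and 2.02 (none called by edgeR).

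The joint test of any difference between prefixes gave an adjusted p of 0.146 with edgeR (unadjusted p = 0.0239), where 6.30% of genes were called. This call changed with the tool. DESeq2 gave an adjusted p of 0.0308 and limma-voom 0.0366 for the joint test, and both also called 882 minus 875 and 894 minus 875. Without inactive bee 1, the highest bee of prefix 875, edgeR called these pairs too, with log2 differences of 2.56 (adjusted p = 0.0354) and 2.69 (adjusted p = 0.0262). Tested within a single ovary status, prefixes gave an adjusted p of 0.206 among active and 0.848 among inactive bees (edgeR), with backgrounds of 8.25% and 1.07%. Whether they differed more among active bees was not tested beyond the interaction above.

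The 8 groups of prefix and ovary status followed, by mean log2 CPM, the order 875 active (13.06), 875 inactive (13.77), 888 active (15.36), 882 active (15.72), 882 inactive (15.81), 894 inactive (16.07), 888 inactive (16.20) and 894 active (16.23). The SD between bees of one group, pooled over groups, was 1.33 on this scale. The only step between neighbours above that spread was the one of 1.59 between 875 inactive and 888 active. All other neighbours in the order differed by at most 0.71. The SD within groups itself ran from 0.14 in 888 active to 2.63 in 875 inactive.

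Bees of the same prefix and ovary status differed in vitellogenin more than they did in most genes. The within-group SD of 1.33 corresponds to a factor of 2.52, while the median gene among 5920 with a mean log2 CPM of at least 4 had an SD of 0.43, a factor of 1.35. An SD at least as large was found in 75 of these genes, vitellogenin included, which is 1.27%. Among the 94 genes with a mean log2 CPM of at least 10, the median SD was 0.62 and 11 genes, again counting vitellogenin, had an SD of at least its own. No relation of the level with library depth was detectable over the 25 bees, with a Pearson r of -0.11 (permutation p = 0.596) and a Spearman rho of -0.002 (permutation p = 0.993) between log2 CPM and log2 total count. Without the 2 bees farthest from the median depth, r was -0.12. The adjusted p was 0.993 for both, over 6 relations.

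Other genes followed this variation across bees. Likeness was measured as the Spearman correlation of log2 CPM over 25 bees, for 5919 genes with a mean log2 CPM of at least 4, and is a description, since all points share library scaling. The median gene had a rho of 0.005. At least 0.5 was reached by 278 genes, and -0.5 or lower by 46. The genes named below were the highest and the lowest of those that kept their sign within active bees, within inactive bees and after group means had been taken out. The files give no name for any of them.

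The gene most like vitellogenin was GB49750, with a rho of 0.83 over 25 bees, 0.70 within active and 0.95 within inactive bees. Its level ran from 6.08 to 268 CPM, with a median of 91.5, in active bees, against 7.13 to 400 CPM, with a median of 207, in inactive bees. In prefix 875 it stood at 17.5, 96.3 and 6.08 CPM in the active bees, against 207, 56.4 and 7.13 CPM in the inactive bees, which placed the same bees low as vitellogenin did. With the 8 group means taken out its rho was 0.88.

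GB40759 came next, with a rho of 0.81 over all bees and 0.63 after group means were taken out. It had a median of 2025 CPM (618 to 4071) in active and 2108 CPM (1202 to 5031) in inactive bees. Its range was thus far narrower than that of vitellogenin.

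On the opposite side stood GB42604, on scaffold Group9.10, with a rho of -0.71, and GB46035 with -0.67. GB42604 had a median of 158 CPM (101 to 499) in active and 177 CPM (85.0 to 330) in inactive bees. GB46035 had a median of 415 CPM (343 to 659) in active and 420 CPM (328 to 668) in inactive bees. For GB46035 the correlation was -0.38 once group means were taken out, against -0.91 within active bees, -0.60 within inactive bees and -0.54 without prefix 875. For GB42604 the value without group means was -0.51. Without inactive bees 6, 8 and 9, rho was 0.82 for GB49750, 0.81 for GB40759, -0.74 for GB42604 and -0.67 for GB46035.

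**Figure D3:**
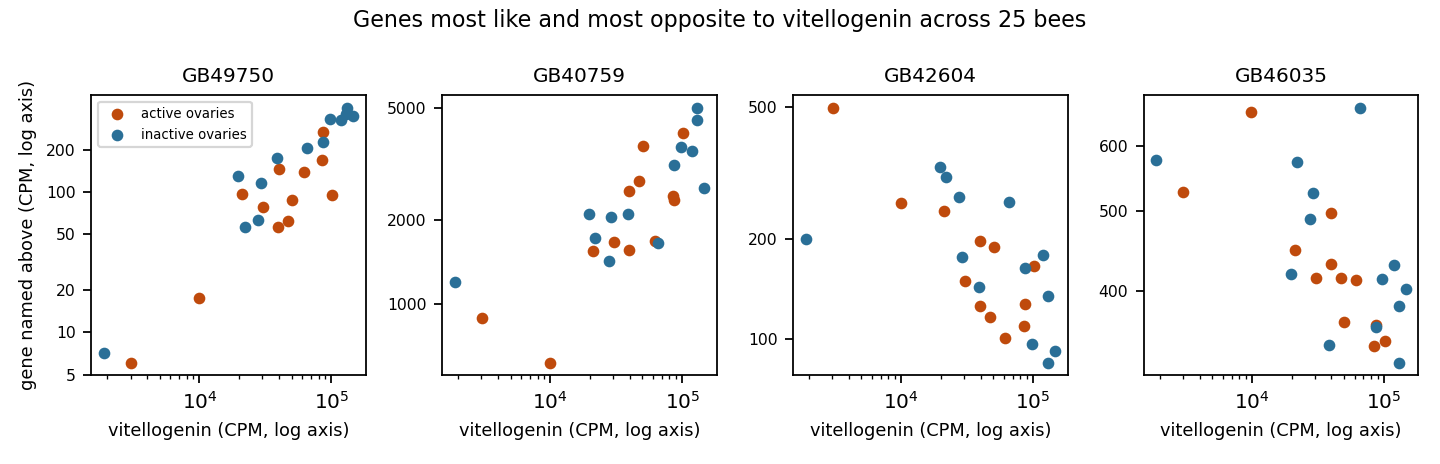
Level of the 4 named genes against vitellogenin (CPM, both on log axes), 1 point per bee, active and inactive ovaries in separate colours. GB49750 and GB40759 rise with vitellogenin (rho 0.83 and 0.81) and GB42604 and GB46035 decline (rho -0.71 and -0.67).

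The second kind of data gives allele counts, read here as counts of the parental copies of the gene. The deposited allele tables give, for single-nucleotide positions, a D and a Q read count in each bee. The letters are defined neither in the labels nor in the headers. D is taken here to stand for the drone father's copy and Q for the queen mother's. The labels give no genotypes, so a bee without a distinct Q allele and one that read only its D copy cannot be told apart. Nor do they give the direction of each cross, so parent and lineage cannot be told apart. Vitellogenin had 2 positions, 420327 and 420372 on scaffold Group4.6, 45 bases apart, in both tables. Reads at them were a small part of the gene's counts, and that part varied between bees. Inactive bees 5 and 6, with gene counts of 423789 and 456277, had 1150 and 106 reads at the first position. Whether the D share there holds for the whole transcript was not tested. Whether they lie in coding or untranslated exon is not known, since the build of the scaffolds is not given in the sources used here. Reads can span both positions, so these are not independent counts. Prefixes 875 and 882 showed one kind of pattern, and 888 and 894 each another.

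In prefix 875 the bees fell into a set with D reads almost alone and a set with both. At the first position active bees 1, 2 and 3 had 524, 450 and 117 D reads with 0, 535 and 0 Q reads. Inactive bees 1, 2 and 3 had 2418, 593 and 38 D reads with 1, 0 and 42 Q reads. Active bee 2, at 45.7% D (95% exact binomial interval 42.5% to 48.9%), and inactive bee 3, at 47.5% (36.2% to 59.0%), were thus near balance, while the other 4 bees were at 99.96% or more. For active bee 3, with 0 of 117 Q reads, the same exact interval ran from 96.9% to 100% D, and taking 0 as at most 3 reads allows a Q share of up to 2.56%. Such limits cover counting error only.

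Prefix 882 showed the same kind of split. Active bees 4, 5 and 6 had 1304, 419 and 333 D reads with 1115, 296 and 357 Q reads at the first position, shares of 53.9%, 58.6% and 48.3% D. Inactive bees 4, 5, 6 and 7 had 5674, 589, 106 and 955 D reads with 4, 561, 0 and 857 Q reads. Inactive bees 4 and 6 were therefore almost wholly D, and inactive bees 5 and 7 stood at 51.2% and 52.7%. The second position gave the same division of bees in both prefixes, with 97.6% to 100% D in the 6 one-sided bees and 46.1% to 55.1% in the other 7. Inactive bee 6 is one of those with missing D reads elsewhere, and at vitellogenin it had D reads nearly alone.

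In prefix 888 D and Q counts were equal within 3 reads at the first position and identical at the second in all 6 bees. Active bees 7, 8 and 9 had 2090, 2578 and 1437 D reads against 2090, 2575 and 1438 Q reads at the first. Inactive bees 8, 9 and 10 had 965, 1189 and 1093 D reads against 965, 1188 and 1094 Q reads. Equality this close leaves less scatter than independent counts would have, and by the rule used for all genes neither position could be used to separate the copies in this prefix.

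In prefix 894 the neighbouring positions differed from each other. The first was at 99.1%, 99.0% and 99.4% D in the active bees, against 98.9%, 99.5% and 99.3% D in the inactive bees. The second was at 70.5%, 68.2% and 68.3% D in the active bees, against 68.3%, 73.6% and 74.7% D in the inactive bees. The 6 bees lay close together at each position, and no bee was near balance at the first.

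**Figure D4:**
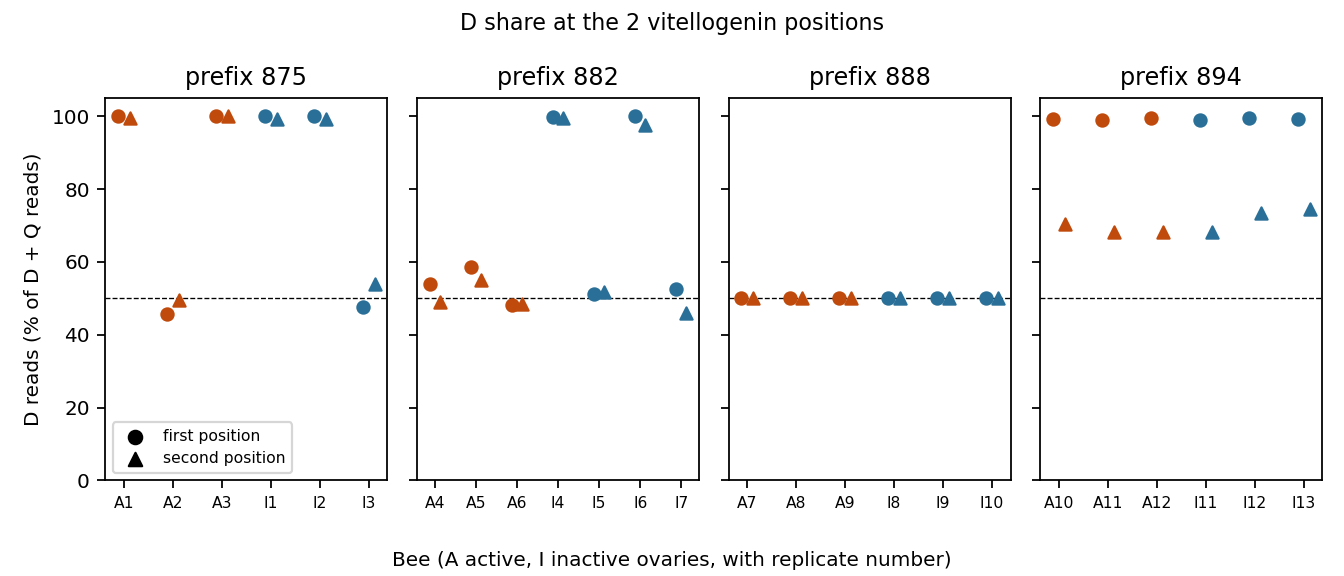
D reads as a percentage of D plus Q reads at the 2 positions in vitellogenin, for each bee by title prefix, with active ovaries (A) left of inactive ovaries (I). Bees of 875 and 882 stand near 100% or near 50%, all bees of 888 at 50%, and those of 894 near 99% at the first and 68.2% to 74.7% at the second position.

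Over the 3 prefixes with usable positions, the mean of the bees' D shares was 73.0% ± 21.7 (SD, n = 9) in active bees, against 80.7% ± 21.6 (SD, n = 10) in inactive bees, both positions summed. Without inactive bees 6, 8 and 9 the mean for inactive ovaries was 78.7% ± 22.0 (SD, n = 9). The planned test over 4 prefixes could not be made without a usable position in 888. Without that prefix, the mean log2 ratio of D to Q was 2.52 with active ovaries (SE 0.85, edgeR adjusted p = 0.0586) and 3.92 with inactive ovaries (SE 1.36, edgeR adjusted p = 0.0619). Neither passed the threshold, in tests that called 30.7% and 28.8% of genes. The limma test on log2 ratios with a pseudocount of 2 called both, at 2.46 (adjusted p = 0.0388) and 3.80 (adjusted p = 0.0263), with 34.5% and 31.5% of genes called. With inactive bees 6, 8 and 9 left out as well, the value for inactive ovaries was 3.41 with edgeR (adjusted p = 0.0936) and 3.59 with limma (adjusted p = 0.0477). With every position counted, prefix 888 included, the values were 1.60 with active (edgeR adjusted p = 0.0716, 23.8% of genes called; limma 1.84, adjusted p = 0.0479, 29.7% called) and 2.71 with inactive ovaries (edgeR adjusted p = 0.0834, 18.5% called; limma 2.85, adjusted p = 0.0444, 23.5% called). These means run over one-sided and balanced bees, and few single bees lie near them. Without genotypes they do not show which parental copy was transcribed. The difference between ovary statuses came to a log2 ratio of -1.30 (SE 1.68) with an edgeR adjusted p of 1, where 0.0974% of genes were called. It was not called, and was -0.84 (edgeR adjusted p = 1) without inactive bees 6, 8 and 9.

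The division of bees at vitellogenin recurred at some other positions of the same scaffold. Positions were judged where at least 4 bees of the prefix had 20 reads. They were counted where the bees one-sided at vitellogenin had at least 90% D and the others 35% to 65%. At least 2 bees of each kind had to have those reads. Leaving out the positions of vitellogenin itself, this held in prefix 875 at 14 of 652 positions, in 4 genes and at 2 positions outside genes, from 401 kb before the first vitellogenin position to 194 kb after it. In prefix 882 it held at 11 of 697 other positions, in 3 genes, from 401 kb before to 25.8 kb after. The 652 positions of prefix 875 include some with enough reads in only 1 bee of the balanced kind, which could not be counted. Positions near balance in every bee, from 40% to 60% D, were far more frequent, at 337 and 212. These counts, the limits used and the genes in the next paragraph were chosen after the values had been seen. Neighbouring positions of a gene can hold nearly the same D and Q counts, so the positions counted are not independent.

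Most of the recurring positions lay in GB49580, whose positions begin 9.20 kb before vitellogenin and which held 7 in prefix 875, of its 10 with enough reads, and 8 of 12 in 882. At its position 411126 active bees 1, 2 and 3 had 60, 108 and 27 D reads with 0, 115 and 0 Q reads, and inactive bees 1, 2 and 3 had 195, 34 and 25 D reads with 0, 0 and 24 Q reads. At this position the bees divided as at vitellogenin. The neighbouring position 411375 had nearly the same counts, with 197 D and 0 Q reads in inactive bee 1. Positions with counts this alike are not independent, so the 7 and 8 positions are not separate recurrences. At the remaining 3 positions of the gene in 875 and 4 in 882 the bees did not divide in this way. At position 412275, for example, active bee 1 had 42 D and 34 Q reads. Inactive bee 1 had 199 D and 131 Q reads, and inactive bee 4 of prefix 882 had 320 D and 237 Q reads. At position 411126 the other prefixes did not match vitellogenin. Bees of 888 were all near 50% D at vitellogenin. Here active bees 7, 8 and 9 had 322, 15 and 274 D reads with 0, 29 and 0 Q reads. Inactive bees 8, 9 and 10 had 155, 398 and 12 D reads with 131, 408 and 0 Q reads. In 894, near 99% D at the first vitellogenin position, bees were near balance (active bee 10, 916 D and 904 Q reads). At 412057 they had mainly D reads (active bee 10, 609 and 5). Near the start of the scaffold, GB49567 had 3 positions with the division of bees in 875 and 2 in 882. Most positions of GB49567 with enough reads did not show that division in either prefix, and many were near balance in every bee. The remaining genes with the division were GB49541, 25.8 kb after vitellogenin with 1 in each, and GB49589 with 1 in 875. These genes also had positions with enough reads that did not show it. The gene next to vitellogenin on the other side, GB49543, did not share it in prefix 875. At its position 423473, 3.15 kb away, the active bees of 875 had 68, 226 and 177 D reads with 43, 138 and 90 Q reads, and the inactive bees had 74, 85 and 112 D reads with 31, 38 and 57 Q reads. All 6 lay between 61.3% and 70.5% D. In prefix 882 inactive bees 4 and 6 stood at 71.1% and 90.6% D there, and the others between 62.0% and 76.6%.

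**Figure D5:**
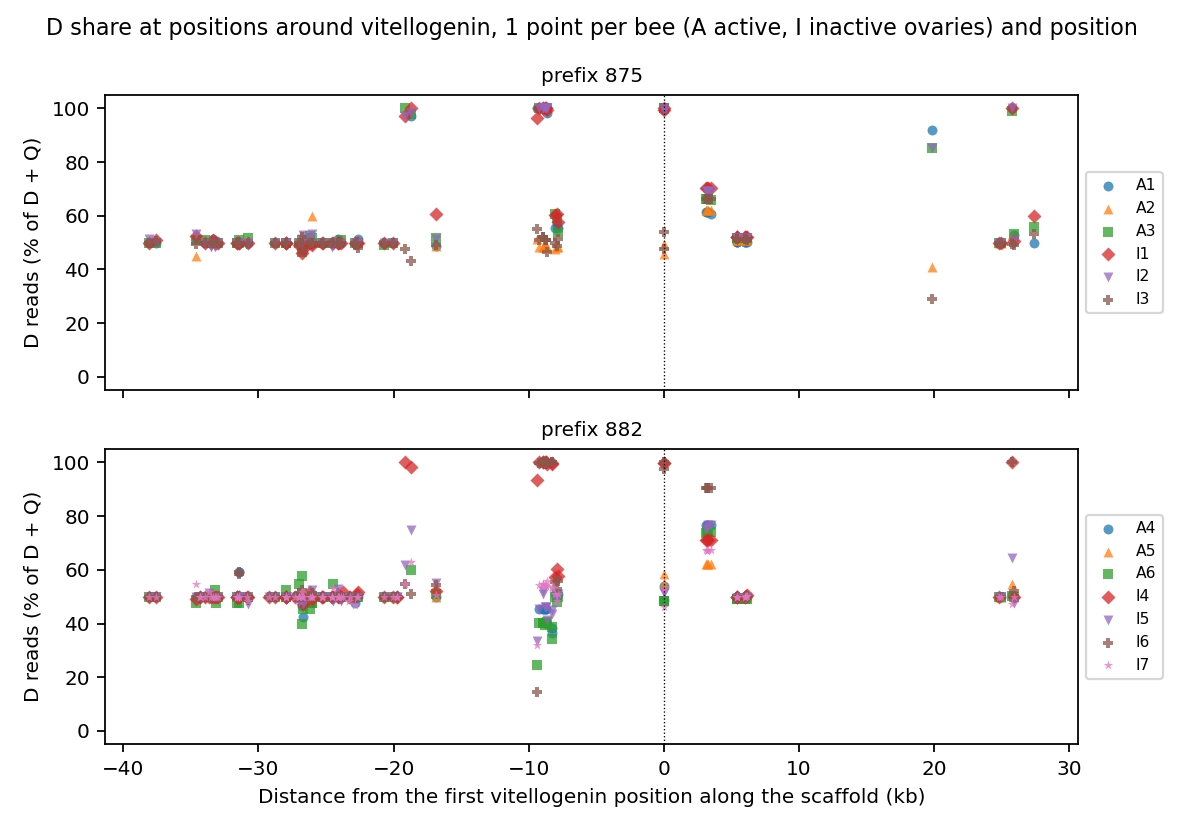
D reads as a percentage of D plus Q reads at positions within 40 kb of vitellogenin on its scaffold (x axis, distance in kb), 1 point per bee and position, for prefixes 875 and 882. The bees near 100% at 0 kb are near 100% again at a group of positions about 9 kb before and at 1 position 25.8 kb after, while many other positions stand near 50% in every bee.

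The neighbouring genes also differed in how they followed vitellogenin in level. GB49580, at 5.92 to 404 CPM over the 25 bees, had a rho of 0.71 with it and a log2 difference of -1.26 for active against inactive ovaries (edgeR adjusted p = 0.15). GB49581, the nearest gene before vitellogenin that has positions in the allele tables, at 0.368 to 24.2 CPM, fell by 1.63 on the log2 scale with active ovaries (edgeR adjusted p = 0.0391). This call was marginal. It was lost without inactive bees 6, 8 and 9 (-1.15, edgeR adjusted p = 0.183), with limma-voom (-1.34, adjusted p = 0.0698) and with total counts only (-1.26, edgeR adjusted p = 0.074), and it held in 13 of the 25 fits that leave out 1 bee, where the log2 difference ran from -2.0 to -1.34. The call for GB49581 was also lost without prefix 882 (-1.24, edgeR adjusted p = 0.288) and without 888 (-1.21, edgeR adjusted p = 0.303). The same was true without the prefix term (edgeR adjusted p = 0.108) and without the filter on low counts (edgeR adjusted p = 0.0519). It held without 875 (edgeR adjusted p = 0.0122) and without 894 (edgeR adjusted p = 0.0382). Without inactive bees 6, 8 and 9 the log2 difference of GB49580 was -0.84 and that of GB49543, given next, was 0.24. GB49543 had a rho of 0.39 and a log2 difference of 0.45 (edgeR adjusted p = 0.274). In the reference annotation of assembly Amel_HAv3.1, 1 gene bears the symbol Vg and 1 other gene overlaps its span. The strand setting of the counts is not given in the sources used here, so reads from such an overlap could not be assigned with certainty.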

How the data were processed

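Per the file headers, the deposited gene table gives read counts for each gene and library, unnormalised, and the 2 deposited allele tables give D and Q read counts for each position. The authors worked with TopHat and edgeR, without stated versions, per the submitters' processing notes. The sources used here give no build, annotation, counting tool or strand setting. The report gives the range of depth per group.

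Groups followed the labels. The gene table was fitted in edgeR 4.0.16 under R 4.3.3 (filterByExpr, TMM, robust quasi-likelihood F tests, ovary status with prefix as covariate, 13157 genes). P-values were Benjamini-Hochberg adjusted over all genes, with 0.05 as threshold. A standard error is the log2 difference over the square root of F. Log2 CPM used a prior count of 2. For each prefix, a position counted as separating the parents if 10 reads were reached in 2 libraries and its chi-square statistic for D = Q lay outside the lower 0.01 tail. Those positions were summed per gene and tested with a block for each library. Leaving out the 3 bees that stand apart from the parental tests and the alternatives for neighbouring genes were chosen after seeing the data. Alternatives used DESeq2 1.42.0 and limma 3.58.1. The edgeR fit of the gene table and the edgeR test of D against Q reads in active bees were run on simulated data. The remaining tests were not, and the outcomes on simulated data are not given here. Genes were named by the rule stated with the correlations. Members, lists and settings were chosen with earlier results of these data known. Planned lists of pathway and tissue genes were not used, since 0 identifiers matched the 12398 reference genes.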

Additional observations from a re-analysis of the deposited data

How the results depend on the processing

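No paired analysis was possible because the labels carry no replicate numbers that pair bees, and bees were numbered in deposited order. The ovary difference stayed negative and uncalled under all 12 alternatives (log2 -0.98 to -0.33, adjusted p 0.165 to 0.618) and without any 1 bee (-0.87 to -0.41). The log2 share difference ran from -0.45 to 0.10 without any 1 bee, and was 0.0660 without prefix 875 and 0.0411 without inactive bees 6, 8 and 9. With those 3 left out, the difference within 888 was 0.609 and 894 minus 882 was -0.0218. With total counts only, the difference within 882 was 0.118 and 888 minus 882 was 0.00553; limma-voom gave 0.0152 for the second. Those 3 left out also gave -0.851 for 888 minus 882 and 0.83 for 894 minus 888. Without any 1 bee, values ran from -2.21 to -0.07 within 875, -1.01 to 0.0306 within 882, -0.17 to 0.31 within 894, -0.34 to 0.10 for 888 minus 882, 1.64 to 2.56 for 882 minus 875 and 1.81 to 2.69 for 894 minus 875, with 1 call in each of the last 2. DESeq2 called the joint prefix test (0.0308), 882 minus 875 (1.88) and 894 minus 875 (2.06), and so did limma-voom (0.0366, 2.27 and 2.67). Counts of genes with a correlation of at least 0.5 or at most -0.5 were 493 and 205 within active bees, 476 and 275 within inactive bees, and, chosen after seeing the data, 648 and 342 without prefix 882. At most -0.5 was also reached by 93 genes with group means taken out, 77 without inactive bees 6, 8 and 9, 150 without 875 and 85 without 888 (the last 2 chosen after seeing the data). Counts within active and within inactive bees rest on 12 and 13 bees. A bound of 0.5 is less strict with fewer bees, so these counts cannot be set directly against those over 25 bees. The cause of the moves in the counts was not tested. Mean D shares moved by less than 1 SD under the 10 alternatives, from 67.3% to 83.3% with active and 73.6% to 84.9% with inactive ovaries. That SD is between single bees and wide: the difference of active minus inactive, -7.72 percentage points, was -1.31 without prefix 882, -11.3 without 875 and -11.0 without 894. Some alternatives left the means at exactly their main values, 73.0% with active and 80.7% with inactive ovaries. These used positions with a chi-square statistic above the median of that distribution, a minimum of 20 reads, or no prefix 888. Prefix 888 had no usable position in the main setting either. Over all genes, edgeR's 2843 calls by ovary status became 1534 without inactive bees 6, 8 and 9, 49 without prefix 882 and 336 without 888. The 829 of the joint prefix test became 1701 with DESeq2, 1440 without those 3 bees, and 259, 267 and 262 without 875, 882 and 894. The 22 of the interaction became 448 with DESeq2 and 76 with total counts.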
